A study of Mus musculus with 20 samples.

Results

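CD122+T-bet int cells are a population of thymic intraepithelial lymphocyte precursors (IELPs) that were sorted by their surface CD122 and by an intermediate level of a fluorescent T-bet reporter. They were taken as the cells that the deposited sort annotation of the TBGR mouse places in this gate and that held at least 2000 transcripts. The rule found 171 such cells in 2 libraries of 96 wells, of 678 cells in 768 wells from the same mouse and of 1413 cells in 1920 wells in the series. Library 1 gave 87 of the cells and library 2 gave 84. No gene's level entered the choice.

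The series profiled single IELPs of mouse thymus with CEL-Seq2, which counts individual messenger RNA molecules in each sorted cell, to follow how these precursors develop. TBGR mice carry a ZsGreen reporter of T-bet on the C57BL/6 background, and the TBGR mouse used here was wild type and 4 weeks old. Its cells came from 4 gates with 2 libraries of 96 wells each. The first gate was CD122-T-bet- and the second CD122+T-bet-. The other two were the int gate and the CD122+T-bet high gate. T-bet+ cells of a TBGR mouse with a floxed C-myc allele (C-myc fl/fl), 2 weeks old and without the Cre that would delete the gene, served as a comparison and gave 116 int and 112 high cells in 4 libraries that hold both gates. The other mice of the series were not analysed here. All groups were depleted of CD4+ and CD8+ thymocytes before the sort. The study describes the sorted cells as NK1.1-, whereas the series text calls them NK1.1+.

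Each gate of the TBGR mouse was 1 mouse and 2 libraries of 96 wells, so a difference between gates and a difference between libraries cannot be told apart, and cells are not replicates. For this reason no p-value is given. Intervals are exact 95% intervals and cover counting error only. A level is given in transcripts per 1000000 (CPM), summed over the cells of a library, and a difference as the log2 ratio of the summed levels of 2 populations. A gene counts as higher or lower where the log2 ratio passed 1, both libraries lay on the same side of both libraries of the other gate, and at least 100 transcripts were summed in either population. Shares over all genes are of genes past this minimum in either gate. The share called among all genes past it in both gates was not worked out. Counts of list members past it in both gates therefore have no matching background and are a description.

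Natural intraepithelial lymphocytes arise in the thymus from thymocytes that received a strong T-cell receptor (TCR) signal and were diverted rather than deleted. Their precursors gain CD122, the receptor chain through which they read IL-15, and later T-bet, the transcription factor that drives cytotoxic and natural killer (NK) receptor genes, and along the way they lose the program of agonist selection. In the gut the mature cells carry CD8 alpha homodimers, NK receptors and cytotoxic granules.

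The int gate held the RNA of the factor it was sorted for. Tbx21, which encodes T-bet, was at 40.9 and 55.3 CPM in libraries 1 and 2, at 2.58 and 0 CPM in CD122+T-bet- cells, and at 0 CPM in both CD122-T-bet- libraries. It was at 214 and 64.3 CPM in the CD122+T-bet high libraries, so the int libraries lay below both, but library 2 of the high gate lay close to them. A Tbx21 transcript was seen in 40 of the 171 int cells. Il2rb, the gene of CD122, was at 355 and 443 CPM, against 289 and 247 CPM in CD122+T-bet- cells and 12.4 and 2.01 CPM in CD122-T-bet- cells. The genes of the depleted coreceptors were low, with Cd4 at 18.2 and 19.0 CPM and Cd8b1 at 6.06 and 12.6 CPM. Klrb1c, which encodes the NK1.1 antigen, was at 24.2 and 55.3 CPM in the int libraries and at 613 and 463 CPM in the high libraries, and 29 int cells held a transcript of it. All 6 genes named for this population (Klrd1, Ccl5, Klra7, Nrgn, Emb and Tbx21) were present in both libraries.

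The int libraries were deep and alike. They held 659975 and 632462 transcripts, with a median of 6405 and 6334 per cell. Of 2334 genes past the minimum against every other gate, 2212 (94.8%) were within 1.5 times in the int libraries, and the median absolute log2 difference was 0.18. They shared 0 of 96 cell barcodes with each other, while an int library and a TBGR library of another gate shared from 0 to 96. Library 2 of the CD122+T-bet high gate stood apart, with 55 passing cells of 96, a median of 106 transcripts in barcodes to which no cell was sorted against 14.5 to 30 in the other TBGR libraries, and 269.9 CPM of markers of CD4+CD8+ thymocytes against 8.49 CPM in library 1, of which 59 of 63 transcripts lay in 1 cell. Without library 1 of the high gate, which leaves only that library, 5 of the 13 genes that were highest in int cells and all 4 that were lowest lost their call against high cells, while leaving out library 2 removed none.

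Markers of the other cell types that the gate could hold were read in both int libraries. Of 6 B cell markers Cd79b and Ighm were seen, together at 255 and 289 CPM, and Ms4a1, Cd79a and Pax5 were at 0. NK cell markers were at 16.7 and 15.8 CPM with Ncr1 at 0, and markers of gamma delta T cells were at 852 and 1266 CPM with Trdc at 6.06 and 12.6 CPM. The gamma delta markers were at 866 and 794 CPM in CD122+T-bet- cells, 283 and 809 CPM in CD122-T-bet- cells and 1555 and 981 CPM in high cells. Erythroid markers were at 148 and 0 CPM, and 82 of the 98 transcripts lay in 1 cell of library 1. Among CD122+T-bet- cells 1 cell carried 99 myeloid transcripts and 96 of the 131 Cd74 transcripts of that gate. Of the other lists, NKT cell markers were at 132 and 289 CPM, regulatory T cell markers at 47.0 and 123 CPM, myeloid markers at 138 and 112 CPM, markers of CD4+CD8+ thymocytes at 16.7 and 15.8 CPM with Rag2 at 0, and thymic epithelial markers at 30.3 and 52.2 CPM. Their part in the results was not tested beyond single cells. Without the 3 cells rich in such markers, 2 named differences from CD122+T-bet- cells, those of Cd74 and Gps2, were no longer called.

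**Figure D1:**
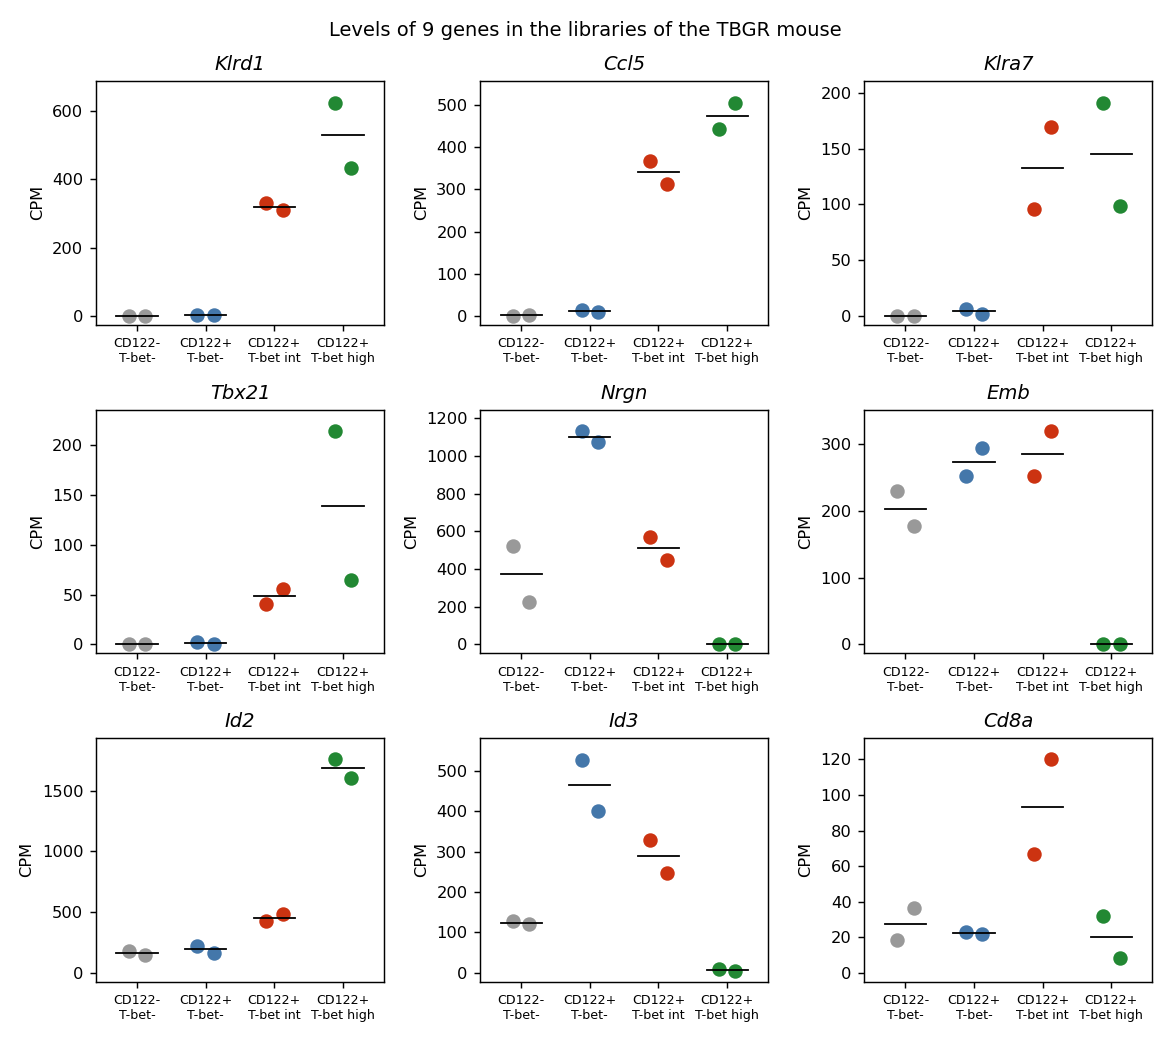
Level of 9 genes in CPM (vertical axis of each panel) in the 2 libraries of each of the 4 gates of the TBGR mouse, each point 1 library. Klrd1 and Ccl5 were near 0 before the int gate, Emb and Nrgn were near 0 in the high gate, and Cd8a had its highest points in the int gate.

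Against CD122+T-bet- cells, the gate that precedes them in the order of CD122 and T-bet, int cells were higher for 68 of 2807 genes (2.42%) and lower for 78 (2.78%), and the median log2 ratio of all genes was 0.07. Without library 1 of CD122+T-bet- cells 111 genes were higher. The higher genes were 46.6% of all calls, 36.5% with the ratios centred on their median and 57.4% with ribosomal protein genes left out of the totals. The genes named as higher included NK receptors of the C-type lectin family and a chemokine. The genes named as lower included genes of immature thymocytes.

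The receptor genes showed large steps. Klrd1 encodes CD94, the partner chain of the NKG2 receptors, and was at 2.58 and 1.44 CPM in CD122+T-bet- cells against 330.3 and 309.9 CPM in int cells, a log2 ratio of 7.07 (interval 5.74 to 9.58). The levels did not overlap. High cells were at 624 and 433 CPM. Of the Ly49 family, MHC class I receptors of NK cells that are counted from near-identical paralogs so that reads may be split between them, Klra7 rose from 6.45 and 1.44 CPM to 95.5 and 169 CPM. Klra10 rose from 10.3 and 1.44 CPM to 150.0 and 157 CPM but stayed 2.73 log2 units below high cells, which were at 1027 and 1011 CPM. Klra1 was already at 128 and 28.8 CPM in CD122+T-bet- cells and was at 129 and 248 CPM in int cells, so its libraries nearly touched. Summed over all 14 listed members of the family, of which 4 had a transcript in int cells, the level was 147 and 33.2 CPM in CD122+T-bet- cells, 382 and 583 CPM in int cells and 1411 and 1221 CPM in high cells.

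Effector genes were higher as well. Ccl5, a chemokine of memory and innate-like T cells, was at 12.9 and 8.65 CPM in CD122+T-bet- cells and at 368 and 313 CPM in int cells. Nkg7, a protein of cytotoxic granules, was at 95.5 and 67.8 CPM and at 456 and 384 CPM, with a log2 ratio of 2.35 (2.07 to 2.65). Both genes were higher in each int library than in either CD122+T-bet- library. Xcl1, the chemokine that draws cross-presenting dendritic cells, had a log2 ratio of 1.56 (1.21 to 1.93). Summed over all 20 listed cytotoxic and chemokine genes, the level was 2084 and 1805 CPM in CD122+T-bet- cells and 3352 and 3350.4 CPM in int cells. Ccl5 and Xcl1 passed the minimum through int cells alone, and of the 6 genes past it in both gates 3 were higher (Nkg7, Lgals1 and Ctsd) and none was lower. The granzymes did not pass the minimum. Gzmb, which kills target cells, was at 3.87 and 0 CPM in CD122+T-bet- cells and at 10.6 and 22.1 CPM in int cells, below the minimum of transcripts, and was at 1063 and 767 CPM in high cells.

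Genes of several other functions were also higher. Cxcr3, a chemokine receptor that is a known target of T-bet, was at 0 CPM in both CD122+T-bet- libraries and at 47.0 and 39.5 CPM in int cells, at least 21.2-fold higher when 3 transcripts are set for the gate at 0, but its sum stayed under the minimum. Gimap4, a GTPase of lymphocytes, was at 85.1 and 98.0 CPM and rose to 555 and 481 CPM. Myo1f, an unconventional myosin of leukocytes, rose from 36.1 and 41.8 CPM to 155 and 168 CPM. Sidt1 was at 25.8 and 10.1 CPM and at 174 and 138 CPM. For each of these 3 called genes the int libraries lay above both others. Ly6c2, a surface marker of memory-type T cells, had a log2 ratio of 3.33 (2.80 to 3.95) and Osbpl3, a sterol-binding protein, of 2.09 (1.54 to 2.71). Fcer1g, an adaptor through which NK receptors signal, was at 89.0 and 82.2 CPM and at 318 and 315 CPM, and Hcst, the adaptor of NKG2D, had a log2 ratio of 1.35 (0.87 to 1.87). In the list of the TCR complex and its signalling, Hcst passed the minimum through int cells alone, and Fcer1g was the only one called of the 20 genes past it in both gates. In the list of S100, annexin and cytoskeletal genes 4 of the 22 past it in both gates were higher (Ahnak, S100a4, Lgals1 and S100a6) and none was lower.

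The genes that fell included markers of immature thymocytes and of agonist selection. Sox4, a transcription factor of immature thymocytes, was at 504 and 466 CPM in CD122+T-bet- cells and at 117 and 120.2 CPM in int cells, a log2 ratio of -2.03 (-2.30 to -1.78). Cd24a, the heat stable antigen that is lost on maturation, was at 125 and 197 CPM and at 13.6 and 19.0 CPM. Cd74, the MHC class II invariant chain, was lower by the rule, but its level in CD122+T-bet- cells, 163 and 7.21 CPM, rested on the 1 myeloid-like cell named above. Blk, a Src family kinase, had a log2 ratio of -2.90 (-3.82 to -2.17). Tnfrsf9, which encodes the costimulatory receptor 4-1BB, was at 144 and 163 CPM and at 51.5 and 28.5 CPM. Nr4a1, whose product Nur77 reads TCR signal strength, was at 258 and 399 CPM and at 97.0 and 133 CPM. In the list of agonist selection and TCR response 2 of the 13 genes past the minimum in both gates were lower (Nr4a1 and Pdcd1) and none was higher. Tnfrsf9, Egr2, Dusp5 and Cd6 were also lower but were among the 5 that passed through CD122+T-bet- cells alone. The other genes named as lower were Nfkb2, Marcks, Tubb2a, Mex3a, Per1 and Arhgap20, with log2 ratios from -1.99 to -2.77.

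Other precursor genes did not pass the rule. Ikzf2, which encodes Helios, was at 1232 and 1469 CPM in CD122+T-bet- cells and at 1058 and 1058 CPM in int cells, below in both libraries but with a log2 ratio of only -0.35 (-0.45 to -0.25). Tcf7 and Lef1, the high-mobility-group factors of naive and precursor T cells, had log2 ratios of -0.01 (-0.16 to 0.14) and -0.10 (-0.31 to 0.11). Their int and CD122+T-bet- libraries overlapped. Emb, an adhesion protein of the immunoglobulin superfamily, and Klrb1a, an NKR-P1 receptor, had log2 ratios of 0.07 (-0.14 to 0.28) and 0.14 (-0.17 to 0.45). None of the 15 genes of cytokine receptors and STAT signalling past the minimum in either gate was called, nor any of the 10 of MHC class I.

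The step from int to CD122+T-bet high cells was wider. Int cells were higher for 266 of 2387 genes (11.1%) and lower for 115 (4.82%), and the median log2 ratio was 0.22. Higher genes were 69.8% of the calls and 48.7% after centring on the median, so the excess of higher genes depends on the scale. Of the genes named here only Cbx5 lost its call against high cells when the ratios were centred. The genes named as higher included precursor genes such as Sox4 and Id3, and the genes named as lower included NK receptors and granzymes.

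Several of the higher genes were close to 0 in high cells. Emb was at 252 and 319 CPM in int cells and at 0 CPM in both high libraries, at least 66.9-fold higher. Nrgn, a calmodulin-binding protein, was at 571 and 449 CPM and at 2.12 and 4.28 CPM. These are the steepest of the markers that name the population. Nrgn was, however, called lower in int than in CD122+T-bet- cells, a call lost without int library 2. It had 1622 transcripts in 168 of 186 CD122+T-bet- cells and 661 in 130 of 171 int cells. Sox4 was still at 117 and 120.2 CPM against 0 and 4.28 CPM, and Id3, an inhibitor of E proteins, at 329 and 248 CPM against 8.49 and 4.28 CPM. Klrb1a was at 141 and 128 CPM against 2.12 and 0 CPM. Tnni1, a troponin subunit, was at 102 and 104 CPM against 0 in both, at least 24.2-fold higher. For all of these the gates did not overlap. Igfbp4, Basp1, Cenpe and Ube2c completed the genes named as higher, and the last 2 belong to the cell cycle.

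Homing genes went both ways. S1pr1, the receptor that guides thymocytes into the blood, was at 8.49 and 12.9 CPM in high cells and higher in int cells, with a log2 ratio of 4.10 (3.14 to 5.53). Itga4, the alpha chain of the gut homing integrin, was at 394 and 509 CPM and at 59.4 and 55.7 CPM, while its partner Itgb7 did not pass (log2 ratio 0.18, -0.10 to 0.46). Other genes of the list were lower. Itgae, which encodes CD103, was at 95.5 and 104 CPM in int cells and at 352 and 296 CPM in high cells, and Cd44, a marker of memory, at 65.2 and 72.7 CPM and at 407 and 356 CPM. Cxcr3 and Cxcr6 were also lower in int cells. Of 15 homing genes past the minimum, 5 passed through int cells alone, S1pr1, Itga4 and Emb among them, and 2, Cxcr3 and Cd44, through high cells alone. Of the 8 past it in both gates none was higher and 2 were lower (Itgae and Cxcr6). In the C-myc fl/fl mouse S1pr1 was at 68.6, 77.0, 74.7 and 12.7 CPM in int cells and at 80.6, 115, 154 and 75.1 CPM in high cells. Its sums there stayed below the minimum of transcripts in both gates. Int cells were below in each of the 4 libraries, and Itga4, which passed the minimum, was below there too.

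NKG2 genes were near 0 in int cells, whereas Klrd1 was not. Klrk1, which encodes NKG2D, was at 3.03 and 12.6 CPM in int cells and at 541 and 583 CPM in high cells. Klrc1 and Klrc2, the NKG2 chains that pair with CD94, were at 4.55 and 0 CPM and at 10.6 and 0 CPM in int cells, against 344 and 343 CPM and 299 and 329.8 CPM in high cells. Klre1, another lectin-like receptor, had a log2 ratio of -6.58 (-9.96 to -5.02), and Styk1, a kinase expressed by NK cells, and Cdh1, E-cadherin, were each at 0 and 1.58 CPM in int cells, against 195 and 116 CPM and 153 and 137 CPM in high cells. Summed over all 17 listed NKG2, CD94 and NKR-P1 genes, the level was 811 and 809.5 CPM in int cells and 3021 and 2587 CPM in high cells, with 346 and 358 CPM in CD122+T-bet- cells. Among 9 members past the minimum 6 passed through high cells alone and 2 through int cells alone, so counts of calls over them are not given. Granzyme A (Gzma) was at 4.55 and 1.58 CPM against 239.7 and 209.9 CPM. Ctla2a, a cathepsin inhibitor, and Fgl2, a secreted fibrinogen-like protein, had log2 ratios of -5.12 (-6.20 to -4.31) and -4.70 (-5.27 to -4.21).

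Among transcription factors, Sox4, Id3, Ikzf2, Tcf7, Tox, Lef1 and Foxo1 were higher in int than in high cells, and all were among the 9 that passed the minimum through int cells alone. Of the 10 past it in both gates 4 were lower (Id2, Maf, Bcl11b and Klf6) and none was higher, and Tbx21, past it in high cells alone, was lower. Tcf7 was at 561 and 504 CPM against 50.9 and 94.2 CPM, a log2 ratio of 3.02 (2.60 to 3.49). Ikzf2 had a ratio of 3.51 (3.16 to 3.90). Of 7 genes of cytokine receptors and STAT signalling past the minimum in both gates Il7r and Ifngr1 were lower, as were Il18rap and Il18r1, which passed through high cells alone. Il7r, the receptor for IL-7, was at 239 and 332 CPM in int cells and at 1154 and 857 CPM in high cells, and the gates did not overlap.

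CD122-T-bet- cells lay farthest from int cells in the counts. Int cells were higher for 497 of 2436 genes (20.4%) and lower for 132 (5.42%), and the median log2 ratio of 0.49 moved the share of higher genes from 79.0% to 46.6% when the ratios were centred. No named gene lost its call against this gate when centred. The genes named as higher included Klrd1, Ccl5, Klra7, Klra1, Klrb1a, Amica1, Birc5, Tpx2 and Cenpe, and of these all but Ccl5, Klra1 and Cenpe were at 0 CPM in both CD122-T-bet- libraries. Amica1, an adhesion protein of leukocytes, was at 130.3 and 188 CPM in int cells, at least 51.8-fold higher. The genes named as lower were Ccr9 and Ccr7, chemokine receptors of thymocyte migration, Cd4, Itm2a, Gzma, Sox13, Chl1, Nr4a3, Dusp10 and C230085N15Rik. Ccr9 was at 1203 and 1496 CPM in CD122-T-bet- cells and at 53.0 and 37.9 CPM in int cells. Gzma was at 33.1 and 286 CPM in CD122-T-bet- cells, so its libraries there were far apart. Summed over the 28 genes of the S100, annexin and cytoskeleton list, the level was 20200.3 and 16526 CPM in CD122-T-bet- cells and 30891 and 31823 CPM in int cells. Of the 13 past the minimum in both gates 6 were higher and none was lower, and 10 others passed through int cells alone. Ahnak, a scaffold protein of effector and memory cells, was at 8.27 and 16.1 CPM in CD122-T-bet- cells and at 292 and 346 CPM in int cells. Ribosomal protein genes took 130049 and 132176 CPM of int cells and 74391 and 63821 CPM of CD122-T-bet- cells, and 25 of the 65 past the minimum in both gates were higher.

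**Figure D2:**
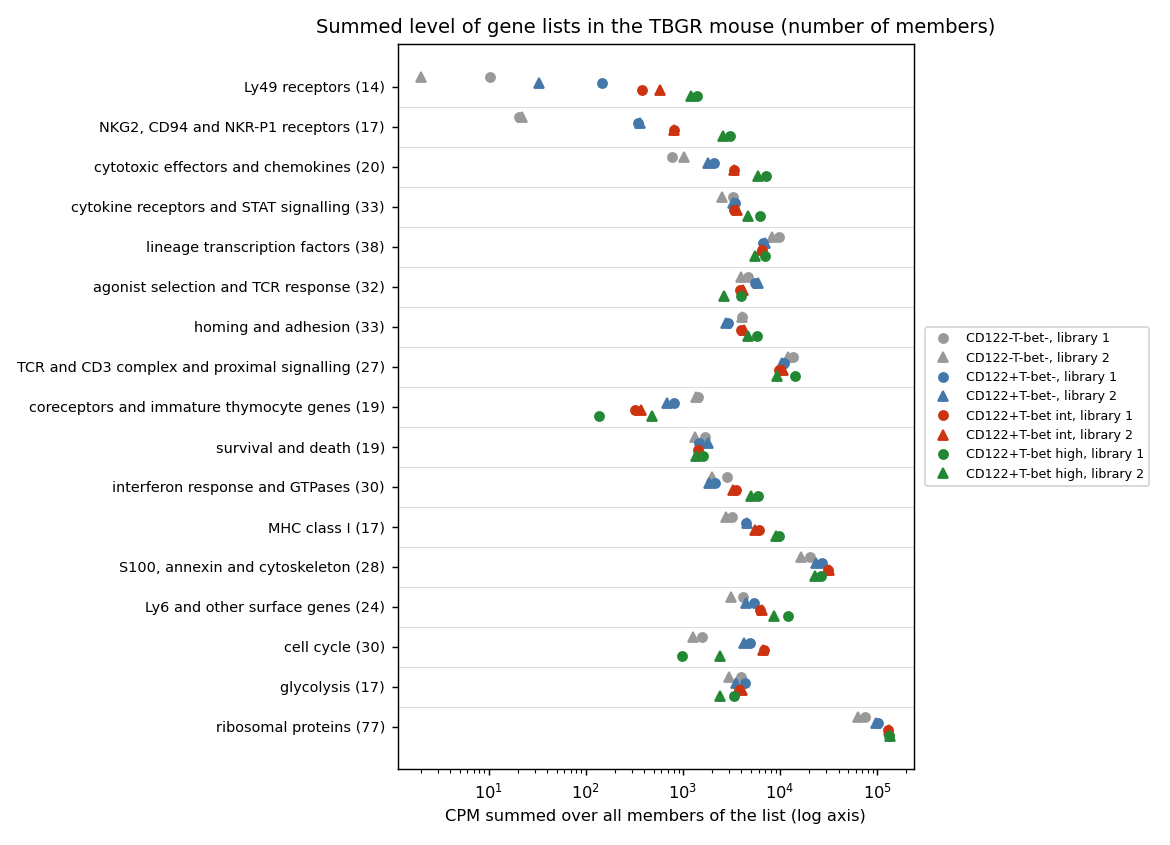
Summed level of all members of each gene list (horizontal axis, CPM, log axis; number of members in parentheses) in the 2 libraries of each gate of the TBGR mouse, circles for library 1 and triangles for library 2. Cell cycle genes had their highest sums in the int gate (6889.7 and 6715 CPM), and the sums of the Ly49 and the NKG2, CD94 and NKR-P1 lists lay between those of CD122+T-bet- and high cells.

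Many of the genes past the minimum had their highest level in int cells. Of the 2334 genes past the minimum in all 3 comparisons, 296 (12.7%) rose and 69 (2.96%) fell at every step from CD122-T-bet- to high cells by their summed levels, 1063 (45.5%) were highest in int cells and 216 (9.25%) were lowest, without regard to size. These counts are on the CPM scale, on which int cells had a positive median ratio to every other gate. Under the rule, 13 genes (0.557%) were higher in int cells than in each of the 3 other gates and 4 (0.171%) were lower than in each. A gene past the minimum in int cells entered all 3 comparisons by that alone. A gene below it in int cells entered only if it passed in every other gate. The filter therefore favours genes that are high in int cells. For this reason the excess of highest over lowest genes, with or without the rule, cannot be told apart from the filter. Without library 1 of CD122+T-bet- cells 29 genes peaked and 2 were lowest, and 2 and 10 were lowest without int library 1 and int library 2.

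The 13 peaking genes were Rrm2, Cd8a, Birc5, Nusap1, Kpna2, Racgap1, Lgals1, Atp1b3, Asf1b, Ccnb1, Ccna2, Cbx5 and Kif15. Apart from Lgals1 and Atp1b3 they reached the minimum of 100 transcripts in int cells alone. Most belong to DNA synthesis and mitosis. Rrm2, a subunit of ribonucleotide reductase, was at 145 and 174 CPM in int cells, at 60.6 and 24.5 CPM in CD122+T-bet- cells and at 6.36 and 81.4 CPM in high cells. Birc5, which encodes survivin of the chromosomal passenger complex, was at 106 and 131 CPM in int cells, at 34.8 and 41.8 CPM in CD122+T-bet- cells and at 0 and 30 CPM in high cells. Ccnb1, the mitotic cyclin B1, was at 83.3 and 71.2 CPM in int cells and at 37.4 and 31.7 CPM in CD122+T-bet- cells. In high cells it was at 4.24 and 12.9 CPM. For each of the 3 genes the int libraries lay above all 6 others. Summed over all 30 genes of the cell cycle list, the level was 6889.7 and 6715 CPM in int cells, 4923 and 4290.1 CPM in CD122+T-bet- cells, 972 and 2407 CPM in high cells and 1589.6 and 1267 CPM in CD122-T-bet- cells, and the int libraries were the highest. Members passed the minimum mostly through int cells alone, 20 of 24 against high cells and 21 of 24 against CD122-T-bet- cells, so counts of calls over them are not given. Against CD122+T-bet- cells 18 of 24 passed in both gates, and none of these was called. Of all genes past the minimum, the int libraries lay above both others at any ratio for 36.7% against CD122+T-bet- cells, 46.8% against high cells and 61.7% against CD122-T-bet- cells.

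Cd8a, Atp1b3 and Lgals1 peaked outside the cell cycle. Cd8a encodes the CD8 alpha chain that mature gut intraepithelial lymphocytes carry as a homodimer. It was at 66.7 and 120.2 CPM in int cells, at 23.2 and 21.6 CPM in CD122+T-bet- cells, at 18.6 and 36.2 CPM in CD122-T-bet- cells and at 31.8 and 8.57 CPM in high cells. The int libraries were above all others, and Cd8b1, the partner chain of conventional CD8 T cells, had its highest level, 43.4 and 66.4 CPM, in CD122-T-bet- cells instead. A Cd8a transcript was seen in 50 of 171 int cells, of which 28 also held Klrd1. Atp1b3, a subunit of the sodium pump, was at 841 and 809.5 CPM in int cells and between 189 and 387 CPM in the 6 other libraries. Lgals1, which encodes galectin-1, was at 452 and 609 CPM in int cells, at 239.9 and 179 CPM in CD122+T-bet- cells and at 191 and 287 CPM in high cells. Cd8a, Birc5, Nusap1, Racgap1, Atp1b3 and Ccnb1 peaked in every setting and with every library left out, whereas Rrm2, Lgals1, Asf1b, Kpna2 and Cbx5 lost the call against high cells without library 1 of that gate.

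**Figure D3:**
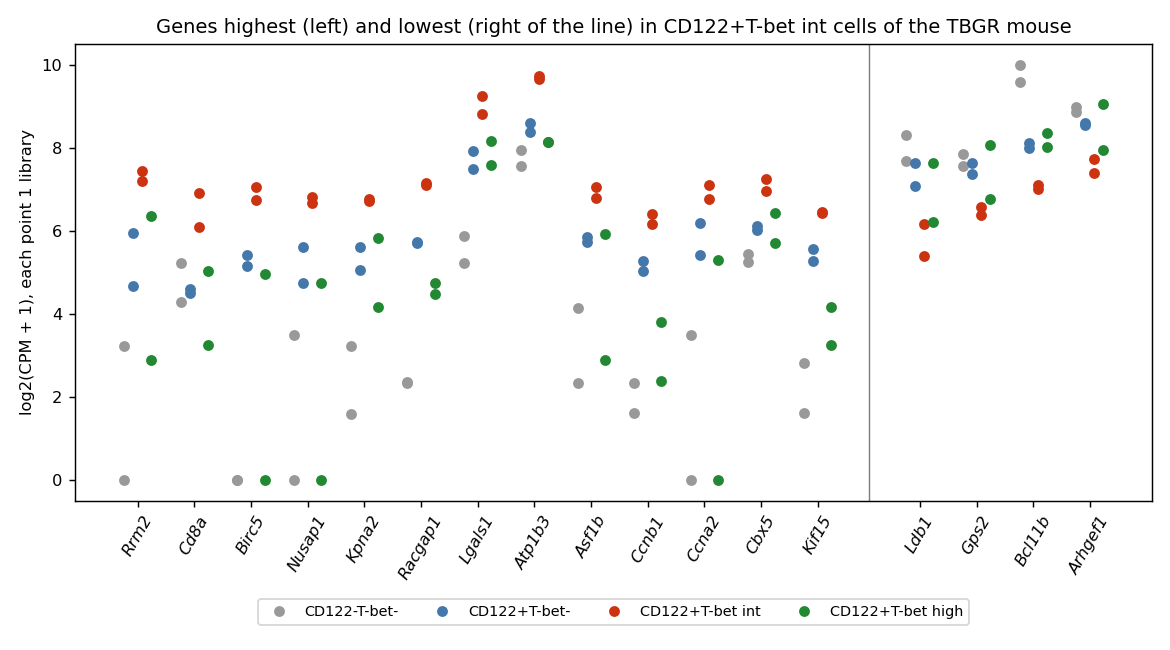
Level of the 13 genes highest and the 4 genes lowest in int cells (vertical axis, log2 of CPM plus 1), each point 1 library of the TBGR mouse, coloured by gate. The points of the int gate lie above all others for the genes at the left and below all others for the genes at the right of the line.

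The promoters of some of these genes are shown because the members peaked together and the cell cycle genes are known to share CCAAT boxes and cell cycle homology regions. RefSeq windows of GRCm38.p6 were read over the 250 bases upstream of the start, 5′ to 3′ on the strand of the gene, with capitals at each match on either strand to the CCAAT box (CCAAT), the cell cycle homology region (TTTGAA) or the core of the T-box site (GGTGTGA). These letter strings do not overlap each other. Ccnb1 was read at chr13:100786487-100786736 on the minus strand, Rrm2 at chr12:24708004-24708253 on the plus strand, Kpna2, an importin that peaks in the cell cycle, at chr11:106999526-106999775 on the minus strand, and Nkg7, as a gene that was higher than in CD122+T-bet- cells, at chr7:43436888-43437137 on the plus strand.
Ccnb1: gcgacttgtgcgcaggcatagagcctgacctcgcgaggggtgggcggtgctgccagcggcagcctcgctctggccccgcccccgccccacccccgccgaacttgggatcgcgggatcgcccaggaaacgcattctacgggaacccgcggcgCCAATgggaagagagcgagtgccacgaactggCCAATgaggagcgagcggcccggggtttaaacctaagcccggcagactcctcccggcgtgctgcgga
Rrm2: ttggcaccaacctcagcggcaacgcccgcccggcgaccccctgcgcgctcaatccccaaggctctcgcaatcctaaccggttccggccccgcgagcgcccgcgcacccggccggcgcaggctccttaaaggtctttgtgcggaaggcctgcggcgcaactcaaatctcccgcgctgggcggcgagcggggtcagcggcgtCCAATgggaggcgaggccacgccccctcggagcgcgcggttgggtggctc
Kpna2: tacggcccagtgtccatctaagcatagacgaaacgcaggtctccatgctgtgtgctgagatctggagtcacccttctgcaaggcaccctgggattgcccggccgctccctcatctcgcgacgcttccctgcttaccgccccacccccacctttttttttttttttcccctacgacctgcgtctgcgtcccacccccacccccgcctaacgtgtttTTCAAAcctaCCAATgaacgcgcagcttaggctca
Nkg7: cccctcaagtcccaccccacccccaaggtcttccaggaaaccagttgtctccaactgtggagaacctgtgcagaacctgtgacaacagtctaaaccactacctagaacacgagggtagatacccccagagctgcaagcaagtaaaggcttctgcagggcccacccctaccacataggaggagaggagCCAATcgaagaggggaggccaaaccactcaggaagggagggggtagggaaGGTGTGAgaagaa
A CCAAT box stood in 6 of the 11 peaking genes with a sequence (Asf1b, Cbx5, Ccnb1, Kpna2, Racgap1 and Rrm2), against 33.8% of 32851 promoters. In Ccnb1 the boxes began 99 and 67 bases upstream of the start, in Rrm2 50 bases and in Kpna2 25 bases. The cell cycle homology region stood in 3 of the 11 (Asf1b, Kif15 and Kpna2), against 16.0% of all promoters. The CCAAT box also stood in 4 of 8 genes named as higher than in CD122+T-bet- cells (Klra10, Nkg7, Osbpl3 and Sidt1). The T-box core stood in 0 of the 11, in 2 of those 8 (Nkg7 and Sidt1) and in 3.33% of all promoters. The match in Nkg7 began 13 bases upstream of the start. A gene counted if any of its windows matched, whereas the shares of all promoters are of single windows, so the units differ. These are matches of letters and no measure of binding.

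The 4 genes lowest in int cells were Ldb1, Bcl11b, Gps2 and Arhgef1. Bcl11b, a factor that commits and holds cells in the T lineage, was at 1023 and 769 CPM in CD122-T-bet- cells, at 276 and 254 CPM in CD122+T-bet- cells, at 127 and 136 CPM in int cells and at 327 and 257 CPM in high cells. It thus fell over the first steps and was higher again in both high libraries. Ldb1, an adaptor of LIM-domain transcription complexes, was at 40.9 and 71.2 CPM in int cells, and its high libraries, at 197 and 72.8 CPM, reached the int level in library 2. Gps2, a subunit of a corepressor complex, and Arhgef1, a guanine nucleotide exchange factor, had log2 ratios of -1.02 (-1.35 to -0.70) and -1.01 (-1.23 to -0.79) to CD122+T-bet- cells. These lie at the edge of the rule, and Gps2, Bcl11b and Arhgef1 lost the call when ribosomal protein genes were left out of the totals.

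Within the gate, most cells held genes of an early and of a late list at once. Of 171 int cells, 145 (84.8%, interval 78.5 to 89.8) held, at 2000 transcripts per cell, at least 1 transcript from each of a list of 10 early genes such as Ikzf2, Id3, Pdcd1 and Sox4 and a list of 10 late genes such as Id2, Nkg7, Xcl1 and Cd160. Early genes alone were seen in 18 int cells and late genes alone in 8. The share with both was 57.0% in CD122+T-bet- cells, 27.6% in CD122-T-bet- cells and 68.0% in high cells. Of the late genes, Id2 was seen in 121, Nkg7 in 136, Gzmb in 14 and Klrk1 in 6 int cells as sequenced, and Id2 was also seen in 65 of 174 CD122-T-bet- cells. In the C-myc fl/fl mouse the share with both was 68.1% of 116 int cells and 61.6% of 112 high cells. In library 1 of that mouse the high share was the greater, 77.4% against 76.7%, and in the others the int share was. Not all members mark the ends of the series. Cd160 was called higher in int than in high cells, and Ikzf2 and Id3 were called higher in int than in CD122-T-bet- cells. The lists were drawn up with these data known, so the shares are a description.

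The same held for single pairs of genes. Klrd1 was seen in 97 int cells, and 71 of these also held Emb and 70 held Nrgn. In high cells 114 held Klrd1, and Emb was seen in 0 of 147 cells, which allows a share of up to 2.04% of cells with a transcript. Id2 and Id3, which oppose the same E proteins, were seen in 121 and 120 int cells and together in 82, and of 143 high cells with Id2 only 5 held Id3. Of the 97 int cells with Klrd1, 1 held Klrc1, a partner chain of CD94, against 75 of 114 in high cells. Klrk1, whose product NKG2D does not pair with CD94, was seen in 5 of the 97 and in 88 of the 114. Klrb1a was seen in 84 int cells and Klrb1c in 29, with both in 12, whereas 1 high cell held Klrb1a and 124 held Klrb1c. These counts are of cells as sequenced, with a median of 6405 and 6334 transcripts per int cell and 4835 and 3805 per high cell. As a background, Klrd1 was found in none (0) of 174 CD122-T-bet- cells, a count that allows a share of up to 1.72%, and in 3 of 186 CD122+T-bet- cells, whose median depth was 7076 and 7073.5 transcripts. Ly49 genes were spread unevenly, with none seen in 79 int cells, 1 in 52, 2 in 26, 3 in 13 and 4 in 1.

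Cell cycle transcripts set a share of int cells apart. Of 171 cells, 43 (25.1%, interval 18.8 to 32.3) held at least 10 transcripts of the cell cycle list per 2000, or 28.7% in library 1 and 21.4% in library 2. The share was 22% in CD122+T-bet- cells, whose interval overlaps, 1.15% in CD122-T-bet- cells and 1.36% in high cells, where both cells were in library 2. Of these 2 high cells 1 was the cell rich in markers of CD4+CD8+ thymocytes. The limit of 10 cuts a range, and 21 int cells lay within 2 of it. The upper end reached farther in int cells, with a 90th percentile of 30 transcripts against 17.0 in CD122+T-bet- cells. The 43 cells also held more transcripts, with a median of 9873 against 5995.5 in the other int cells.

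**Figure D4:**
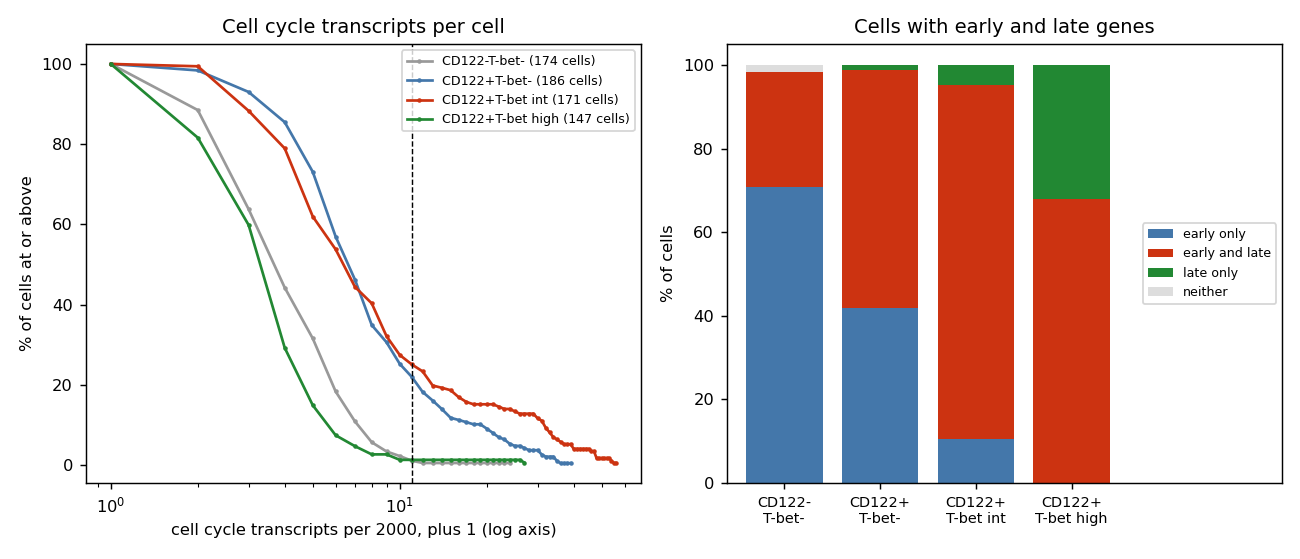
Left, share of cells (vertical axis, percent) at or above a number of cell cycle transcripts per 2000 plus 1 (log axis) in each gate of the TBGR mouse. Right, share of cells with early genes, late genes or both, where 84.8% of int cells held both.

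Cells at or over the limit carried less Klrd1 and Ccl5. After each cell was thinned to 2000 transcripts, Klrd1 was at 221 CPM in these 43 cells and at 488 CPM in the other 128, a log2 ratio of -1.11 (-1.92 to -0.44). Ccl5 was at 151 and 566 CPM (-1.86, -2.85 to -1.09), in 18.6% and 27.3% of the cells. Ly6c2 had a ratio of -1.58 (-2.92 to -0.60), Emb of -0.97 (-1.87 to -0.24) and Tcf7 of -0.64 (-1.20 to -0.14). Nrgn went the other way, at 756 and 383 CPM (0.99, 0.51 to 1.45), as did Lgals1 (0.69, 0.18 to 1.18) and Igfbp4 (1.57, 0.23 to 2.92). The receptor genes Klra10 (-0.10, -1.08 to 0.72), Klra1 (0.38, -0.63 to 1.26), Klra7 (-1.03, -2.50 to 0.05) and Klrb1c (-0.83, -3.42 to 0.77) had intervals that include 0, as had Nkg7 (-0.52, -1.15 to 0.03). Ikzf2 (-0.16, -0.52 to 0.18), Id2 (-0.19, -0.78 to 0.33) and Cd8a (0.08, -1.16 to 1.12) also did. Genes of the cell cycle list differ here because they define the cells. The intervals count transcripts of 1 mouse, and spread between cells is not in them.

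The C-myc fl/fl mouse gave int and high cells of the same libraries, so their difference was read within libraries. Int cells were higher for 27 of 1108 genes (2.44%) and lower for 35 (3.16%), called where the log2 ratio of the sums passed 1 and all 4 libraries had the same direction, and the median was 0.22. Of the 266 genes higher in the TBGR mouse 125 could be tested and 69 (55.2%) had the same direction in all 4 libraries, against 34.6% of all genes, and of the 115 lower 37 could be tested and 28 (75.7%) did, against 10.3%. Called in both mice were 17 higher genes, 6.39% of the TBGR calls and 63.0% of the fl/fl calls, and 21 lower genes, 18.3% and 60%. The mice differ in age and genotype, and these cannot be told apart.

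The markers of the population differed in size between the mice. Klrd1 was at 21.4, 50.2, 49.8 and 44.3 CPM in int cells of the 4 libraries and at 222, 456, 352 and 359 CPM in high cells, a log2 ratio of -3.05 (-3.63 to -2.56). In the TBGR mouse the ratio was -0.81 (-1.01 to -0.60), so Klrd1 stood much nearer to the level of high cells there. Ccl5 was at 68.6, 93.7, 12.4 and 25.3 CPM in int cells and at 479, 802, 1194 and 401 CPM in high cells (-3.65, -4.11 to -3.24), whereas in the TBGR mouse its ratio was -0.44 (-0.65 to -0.23) and not called. Klra7 was at 34.3, 40.2, 24.9 and 6.33 CPM and at 237, 140.3, 149 and 167 CPM (-2.55, -3.25 to -1.94), and its ratio in the TBGR mouse was -0.29 (-0.64 to 0.07), with libraries that overlapped. For both genes every int library of the C-myc fl/fl mouse lay below every high library. Tbx21 stayed below the minimum in this mouse, at 17.2, 23.4, 12.4 and 19.0 CPM and at 75.6, 55.1, 71.5 and 25 CPM. Klra10 was at 12.9, 13.4, 24.9 and 12.7 CPM and at 262, 411, 159.6 and 300.4 CPM. Nrgn was at 425, 224, 329.7 and 323 CPM in int cells and at 40.3, 55.1, 55.0 and 8.34 CPM in high cells. Emb was at 219, 144, 168 and 94.9 CPM and at 40.3, 80.2, 127 and 25 CPM, so it was not absent from high cells of this mouse and its libraries overlapped across the gates. Gzmb was seen at 77.2 to 317 CPM in int cells and at 929.9 to 1243 CPM in high cells. Cd8a was at 18.8 CPM in int cells and at 24.3 CPM in high cells, below the minimum, and a difference between the mice was not tested.

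Cell cycle transcripts were read in the same way in this mouse. Of 116 int cells 63 (54.3%, 44.8 to 63.6) were at or over 10 cell cycle transcripts per 2000, with 56.7%, 57.6%, 53.8% and 48.1% in the 4 libraries. Of 112 high cells 44 (39.3%, 30.2 to 49.0) were, with 54.8%, 34.4%, 44.0% and 20.8%. The int share was the greater in each library. By gene the difference was small. Of 19 genes of the list past the minimum in either gate 1, Mcm6, was called higher in int cells and none was lower. Their median log2 ratio was 0.37, against 0.22 for all genes. How many passed through a single gate was not counted.

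**Figure D5:**
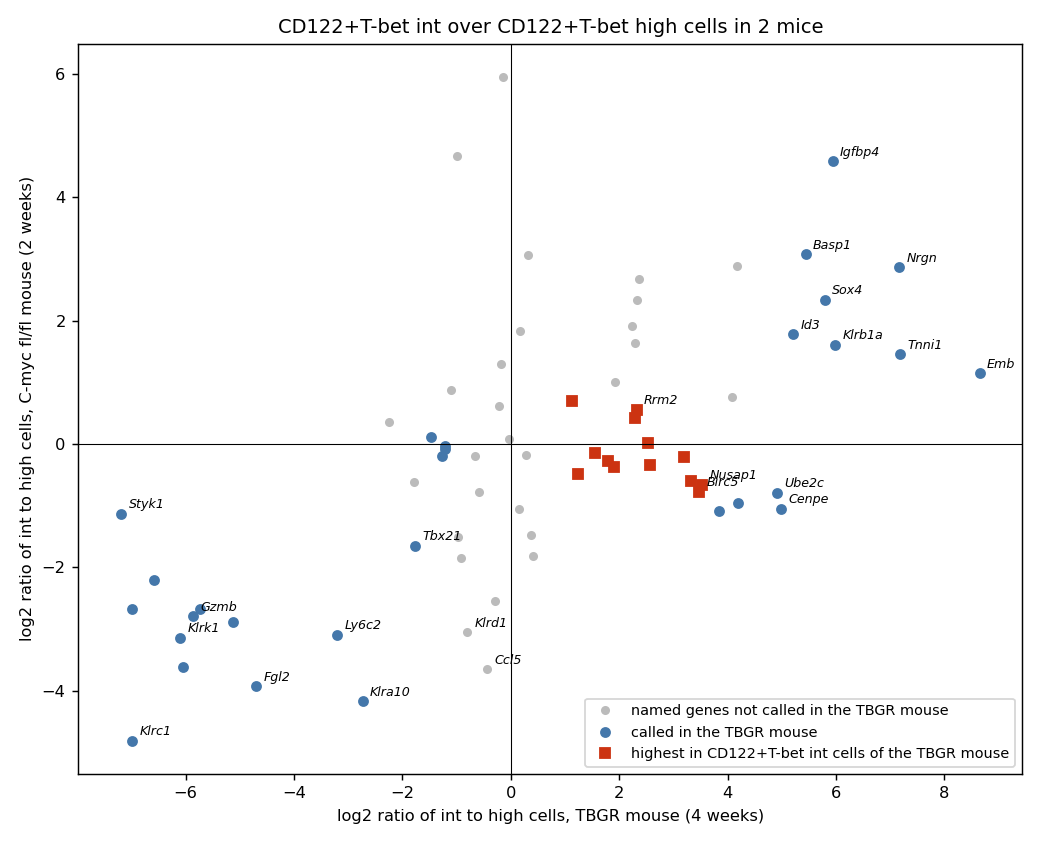
Log2 ratio of int to high cells in the TBGR mouse (horizontal axis) and in the C-myc fl/fl mouse (vertical axis), each point 1 named gene, with squares for the genes highest in int cells of the TBGR mouse. Klrd1, Klra10 and Gzmb lie below 0 on both axes, Nrgn and Id3 lie above 0 on both, and Ube2c lies at 4.92 and -0.79.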

How the data were processed

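Single IELPs were sorted into wells and sequenced with CEL-Seq2. The authors demultiplexed with bcl2fastq 2.17.1.14, aligned with BWA 0.6.2-r126 to the GENCODE mouse transcriptome and deposited, per gene and well, estimated counts of transcripts corrected for saturation of the molecular identifiers of 6 bases. These expected counts were rounded to whole transcripts. Mitochondrial and spike-in rows did not count toward the 2000 transcripts that a cell needed. Cells came from a sort of 1 cell per well, and no doublet caller was run. No file pairs the sort gates with replicate mice, so each population was summed per library, scaled to 1000000 transcripts and compared by its log2 ratio with 0.5 transcripts added to each sum, with no test, since a gate is 1 mouse. Shares of cells used cells thinned to 2000 transcripts where stated. Intervals are exact (Poisson, binomial or conditional) at 95% and cover counting error only. Named genes were the population markers, up to 10 per direction and comparison with the largest log2 ratio among calls, and genes peaking or lowest in int cells. Gene lists and members were chosen with earlier results of these data known. Genes named outside that rule, as members of lists, were chosen after their values were seen. A few genes are not reported here. Promoter sequences are those of RefSeq GRCm38.p6. The steps were tested on simulated data. Python 3.11.15, numpy 2.4.6, pandas 2.3.3, scipy 1.17.1 and matplotlib 3.10.9 were used.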

Additional observations from a re-analysis of the deposited data

Results flagged for a closer look

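Bcl11b, a T lineage commitment factor, was at 56.0 CPM in int cells of 1 library of the C-myc fl/fl mouse. The gap to the next library took most of the range of the 4. Chance gives such a gap in about 1 of 20 groups, and 23 genes were read this way. Counting error in these levels was not taken into account. For the next 4 genes every library of the TBGR mouse had int cells above high cells and every library of the C-myc fl/fl mouse had them below, a difference that was not tested and in which age and genotype cannot be told apart. These were Itga4 with log2 ratios of 2.94 and -1.42 in the 2 mice, the tubulin genes Tuba1c with 1.45 and -0.78 and Tubb4b with 1.21 and -0.67, and the mitotic ubiquitin-conjugating enzyme gene Ube2c with 4.92 and -0.79. Itga4 was at 70.3 to 187 CPM in int cells and at 202 to 375 CPM in high cells of the C-myc fl/fl mouse. Barcodes of the int libraries to which no cell had been sorted still carried a median of 14.5 and 20 transcripts.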

How the results depend on the processing

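No paired analysis was possible because each gate of the TBGR mouse has its own libraries, and their numbers do not tie libraries together. Counts of genes moved most with the thresholds. With a minimum of 20 transcripts in place of 100, int cells were higher and lower than CD122+T-bet- cells for 277 and 554 genes, than high cells for 965 and 520, than CD122-T-bet- cells for 1438 and 650, and than high cells of the C-myc fl/fl mouse for 277 and 128, with 79 peaking and 47 lowest. With no minimum these were 730 and 1577, 1905 and 1264, 2234 and 2070, 509 and 280, and 174 and 197. With a log2 ratio of 0.58 they were 275 and 260, 642 and 231, 1064 and 205, 142 and 60, and 109 and 25. Centring on the median gave 172 and 181 against high cells, 204 and 234 against CD122-T-bet- cells and 15 higher in the C-myc fl/fl mouse. Cells thinned to 2000 transcripts gave 121 and 124 against CD122+T-bet- cells, 28 peaking, and 53 higher in the C-myc fl/fl mouse, where a mean of per-cell shares gave 43. Totals without ribosomal protein genes gave 21 peaking and 1 lowest, and a minimum of 1000 transcripts per cell gave 7 lowest. Leaving out 1 library at a time, with the minimum set by all libraries, gave 67 to 111 genes higher than CD122+T-bet- cells, where the 111 was without library 1 of that gate, 11 to 29 peaking, where the 29 was without the same library, and 2 to 10 lowest, with 2 without that library or int library 1 and 10 without int library 2. The other counts were within 1.5 times of the values given, with 344 higher genes without library 1 of the high gate. Of 38 named calls against high cells 10 were lost without library 1 of that gate, Tbx21 among them. The share of int cells over the cell cycle limit was 53.8% at a limit of 5 and 15.2% at 20, and both limits, like the values without the 3 marker-rich cells and without 1 library for shares, were chosen after seeing the data. No called difference of a gene named by the rule turned its direction in the alternatives run. Ratios that were not called were not read for this, and genes named only as members of lists were not run. Centring turned the balance of higher and lower calls against high and CD122-T-bet- cells. Leaving out ribosomal protein genes turned it against CD122+T-bet- cells (85 and 63). Genes below 100 summed transcripts in both gates of a comparison are limited by depth, the granzymes between int and CD122+T-bet- cells among them. Against high cells Gzma and Gzmb passed the minimum through high cells and were lower in int cells.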
